A study of Mus musculus with 18 samples.

Results

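Fetal mouse liver from 13.5 days post conception (dpc) on was compared with liver at 11.5 dpc. The comparison used 8 of the 18 arrays of the series, chosen by the stage given in the source name: 2 arrays of liver at 11.5 dpc against 6 arrays of later liver, 2 each at 13.5, 14.5 and 16.5 dpc, called late liver here. The embryos were CD-1 mice, for which the labels name no mutant allele and no agent, and each array held RNA from a pool of 5 or more embryos, so that differences between single embryos were averaged away. The 2 arrays of a stage are labelled as biological replicates. The other arrays were 2 each of liver at 10.5 and 12.5 dpc, 2 of normal liver from 10-week-old CD-1 females, and 1 of the embryo without its liver at each of 4 stages (10.5, 11.5, 12.5 dpc and 14.5 dpc). Liver at 10.5 and 12.5 dpc stayed out of the comparison because those arrays carried heart transcripts: the median intensity over 8 heart muscle genes was 301 and 247 on the 10.5 dpc arrays and 126 and 194 on those of 12.5 dpc, against 88.1 and 87.7 at 11.5 dpc and 75.3 to 97.2 on the 6 late arrays. Single sarcomeric genes did not all follow that median: Actc1, a sarcomeric actin, read 6147 and 5044 at 10.5 dpc and 1958 and 4320 at 12.5 dpc, against 94.1 and 107 at 11.5 dpc and 434 to 898 on the late arrays. The part of heart tissue in the differences was not tested.

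The liver bud forms when hepatoblasts leave the foregut endoderm and invade the septum transversum, a sheet of mesenchyme that gives rise to stellate cells and mesothelium. That mesenchyme, with the cardiac mesoderm, supplies BMP, FGF and Wnt signals to the hepatoblasts. In the following days blood progenitors colonise the organ, which becomes the main site of red cell formation in the fetus, while hepatoblasts turn on genes for plasma proteins and metabolic enzymes.

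The values were probe set intensities on a linear scale. For the test, every intensity under 24.8, the 20th percentile over the 18 arrays, was set to that floor before log2 values were taken. Each gene was taken from its probe set with the highest mean. A gene was tested when it read above 78.0 on at least 2 of the 8 arrays, which 12783 of 18193 genes did. Where only the 11.5 dpc arrays or only the late arrays read above 78.0, a gene entered through the group where it was high. Calls of such genes are a description and no support. A gene was called when limma's moderated test gave a Benjamini-Hochberg adjusted p under 0.05 over all tested genes and the difference was at least 1 on the log2 scale, and "rose" and "fell" are used for called genes. Within a stage the 2 arrays correlated at 0.967 to 0.974 over genes, while 11.5 dpc arrays correlated with late arrays at 0.846 to 0.917. The labelled tissue was checked against its defining transcripts: Alb, encoding albumin, read 6433 and 6058 at 11.5 dpc and 8537 to 8941 on the late arrays, and Afp, encoding alpha-fetoprotein, read 5496 to 6574 on the 8 arrays.

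Late liver differed from 11.5 dpc liver in many more rises than falls. Of the 12783 genes, 760 rose (5.95%) and 195 fell (1.53%), and the median difference over all genes was 0.05. These 2 shares stand beside each count of list members given below. The gene lists with the most rises were those of plasma proteins (17 of 25 tested) and definitive red cells (16 of 21), and the TGF-beta and BMP list and the stellate and portal mesenchyme list each held 4 falls and 0 rises. Of the 17 plasma protein rises, 3 passed the filter through the late arrays only. In the TGF-beta and BMP list and in the stellate list, 1 of the 4 falls passed through the 11.5 dpc arrays only. The count of falls depended on the 11.5 dpc arrays. Without 11.5 dpc replicate 2, 92 genes fell and 760 rose, and 67 of the original 195 were then no longer tested, since a gene that read above 78.0 only at 11.5 dpc needs both arrays to pass. With the same 12783 genes kept in that fit, 149 genes fell, 134 of them among the original 195. In RNA from a whole organ, fewer cells of a type and less RNA per cell cannot be told apart.

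Mesenchymal genes were among the falls, with transcription factor and receptor genes leading. In the list of stellate cell and portal mesenchyme genes, 4 of 19 tested members fell and 0 rose, and the median difference was -0.49. Of the 4, Rgs5 passed the filter through the 11.5 dpc arrays only, so its fall is a description and no support. All 6 late arrays lay below both 11.5 dpc arrays for 11 of the 19, against 19.1% of all genes tested. Pdgfra, a receptor for platelet-derived growth factor carried by mesenchymal cells, read 391 and 513 at 11.5 dpc, then 166 and 203 at 13.5, 143 and 137 at 14.5, and 96.5 and 109 at 16.5 dpc. Every late array was below both early ones, and the difference was -1.70 ± 0.14 (SE; limma adjusted p = 9.33e-05). Hand2, a transcription factor of mesenchyme, read 318 and 340 at 11.5 dpc, then 146 and 156 at 13.5, 109 and 90.1 at 14.5, and 76.0 and 84.0 at 16.5 dpc, a difference of -1.63 ± 0.11 (limma adjusted p = 4.87e-05). For both genes the mean over all their probe sets gave a smaller difference that was not called, -0.93 for Pdgfra and -0.95 for Hand2.

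The other mesenchymal calls were nearer to the threshold. Lhx2, a LIM homeobox factor of stellate cells, read 149 and 236 at 11.5 dpc and 73.6 to 115 on the late arrays, a difference of -1.17 that became -0.84, and was not called, without 11.5 dpc replicate 2. Rgs5, a regulator of G protein signalling found in pericytes, went from 103 and 144 to 42.2 to 68.9, a difference of -1.15 that was -0.91 without the same array and also not called. Pdgfrb and Gata4, chosen for mention after their values were seen, stopped just short of the fold threshold at -0.97 and -0.99, with adjusted p of 1.18e-03 and 0.017 (limma). Dcn, encoding the matrix proteoglycan decorin, was on the other side of the same list at 0.90, from 256 and 311 to between 390 and 699. The list held members with differences in both directions, 12 of 19 below 0.

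Genes of the mesothelium, the covering layer of the organ, were split. Of 10 tested members of the mesothelium and septum transversum list, 2 fell and 1 rose, with a median of -0.37. Another 5 members on the array were not tested. Of the 10, 3 passed the filter through the 11.5 dpc arrays only, and both falls were among them, so the count of falls is a description and no support. Wt1, a zinc finger factor that marks the septum transversum and mesothelium, read 108 and 109 at 11.5 dpc, then 50.7 and 51.3 at 13.5, 26.1 and 47.9 at 14.5, and 28.7 and 34.3 at 16.5 dpc. Its difference was -1.5 ± 0.25 (limma adjusted p = 3.38e-03), and the late values came close to the floor. Bnc1, encoding the zinc finger protein basonuclin 1, read 104 and 112 against 30.1 to 51.2 on the late arrays, a difference of -1.30. In the other direction Upk1b, a uroplakin of the mesothelial surface, read 93.7 and 63.6 at 11.5 dpc and 139 to 327 later, a difference of 1.45.

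**Figure D1:**
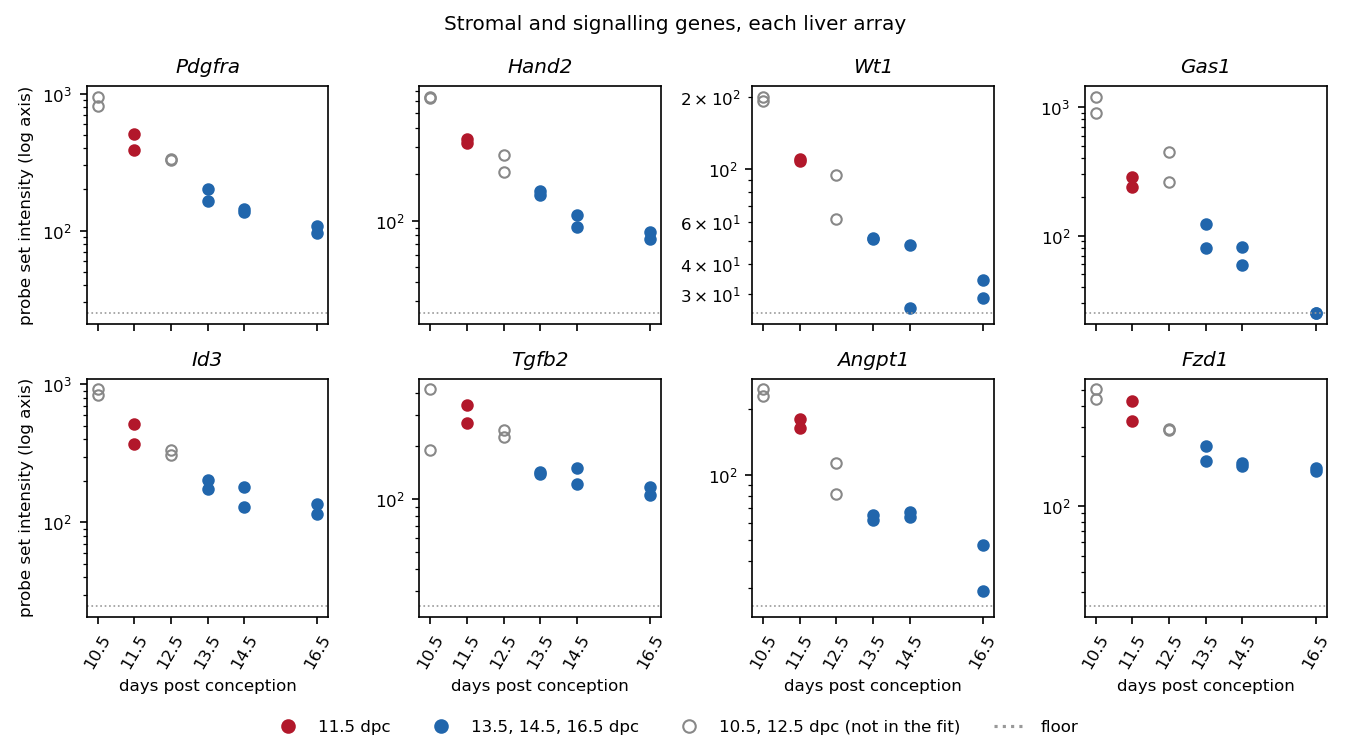
Probe set intensity (log axis) against days post conception for 8 stromal and signalling genes, 1 point per liver array; red points are 11.5 dpc, blue points late liver, open grey points the 10.5 and 12.5 dpc arrays that were not in the fit, and values under the floor of 24.8 (dotted line) are drawn at the floor. In each of the 8 panels all 6 blue points lie below both red points; Pdgfra goes from 391 and 513 to 96.5 and 109 at 16.5 dpc.

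Matrix genes showed no common direction. Of 33 tested members of the extracellular matrix and collagen list, 2 rose, 1 fell and the other 30 passed no threshold; their median was 0.01. The 5 fibrillar collagens had a median of -0.03 and 0 calls: Col3a1 read 1712 and 1771 at 11.5 dpc and 1392 to 1906 later, and Col1a2 read 806 and 841 against 698 to 901. Fn1, encoding fibronectin, had a difference of 0.94, under the fold threshold. Col18a1, a basement membrane collagen and the source of endostatin, rose from 455 and 399 to between 799 and 953, a difference of 1.10. Fbln5, a protein of elastic fibres, read 31.5 and 98.1 at 11.5 dpc and 134 to 226 later. Its 11.5 dpc arrays lay far apart, and the difference of 1.6 became 0.78, and was not called, without 11.5 dpc replicate 1. Timp3, an inhibitor of metalloproteinases held in the matrix, went from 252 and 241 to between 106 and 136, a difference of -1.07, but another of its probe sets gave 0.11. Of all genes tested, 1.53% fell and 5.95% rose. Over the 3 stromal lists together 7 of 62 tested genes fell and 3 rose; without 11.5 dpc replicate 2 the falls were 3, or 5 with the tested genes held fixed. Of the 7 falls, Wt1, Bnc1 and Rgs5 passed the filter through the 11.5 dpc arrays only, so their calls are a description and no support.

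Endothelial genes had differences centred near 0. Of 20 tested members 2 fell and 0 rose, and the median was -0.02. Aplnr, the apelin receptor of angiogenic endothelium, read 201 and 244 at 11.5 dpc and 48.8 to 126 later, a difference of -1.33 ± 0.15 (limma adjusted p = 5.23e-04). Fli1, an ETS factor of endothelium and blood, read 192 and 279 against 84.0 to 140, a difference of -1.12 that was -0.84, and not called, without 11.5 dpc replicate 2. Stab1 and Stab2, scavenger receptors of the liver sinusoid named after their values were seen, differed by 0.74 and 0.72, from 103 and 109 to between 162 and 194 for Stab1 and from 107 and 109 to between 143 and 198 for Stab2. Both were under the fold threshold.

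In the TGF-beta and BMP pathway, ligands bind pairs of serine/threonine kinase receptors that activate SMAD transcription factors, and inhibitory members restrain the signal. Of 42 tested members 4 fell and 0 rose. The median difference was -0.40, 30 of the 42 differences were below 0, and for 19 of the 42 all late arrays lay below both 11.5 dpc arrays (19.1% of all genes). By role, the median was -0.38 over 10 ligands, -0.37 over 9 receptors, -0.54 over 7 SMADs, -0.33 over 9 inhibitors and -0.47 over 7 targets. The called genes came from 4 of these 5 roles, with none among the receptors. The only SMAD among them, Smad7, passed the filter through the 11.5 dpc arrays only, so its call is a description and no support.

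Tgfb2, a ligand, read 268 and 342 at 11.5 dpc, then 143 and 139 at 13.5, 149 and 122 at 14.5, and 116 and 105 at 16.5 dpc. The groups did not overlap and the difference was -1.24 ± 0.13 (limma adjusted p = 3.69e-04), whereas another of its probe sets differed by 0.59. Smad7, the inhibitory SMAD, read 104 and 183 at 11.5 dpc and 47.5 to 64.2 later, a difference of -1.31 ± 0.24 that was -0.91, and not called, without 11.5 dpc replicate 2. Bambi, a pseudoreceptor that blocks signalling, read 178 and 209 against 72.0 to 135.4, a difference of -1.0 that sat at the threshold and was not called without 11.5 dpc replicate 2 (-0.89), 13.5 dpc replicate 1, 14.5 dpc replicate 2 or 16.5 dpc replicate 1. Id3, which encodes an inhibitor of helix-loop-helix factors and is a target of BMP signalling, read 369 and 521 at 11.5 dpc, then 176 and 204 at 13.5, 180 and 129 at 14.5, and 114 and 137 at 16.5 dpc. Its difference of -1.51 ± 0.18 (limma adjusted p = 6.78e-04) stayed called under each of the alternatives run.

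Below the fold threshold lay several genes of the same pathway, named here after their values were seen. Bmpr1a, a BMP receptor, read 222 and 287 at 11.5 dpc and 108 to 172 later, a difference of -0.92 (limma adjusted p = 1.22e-03). Tgfbr1, a TGF-beta receptor, went from 329 and 452 to between 186 and 256, a difference of -0.88. The common SMAD, Smad4, went from 475 and 619 to between 231 and 345, likewise -0.88. None of these 3 was called in the fit of all 8 arrays, and all 3 passed without 11.5 dpc replicate 1.

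Few Wnt genes were called. Of 35 tested members 2 fell and 0 rose, the median was -0.14, and the medians over ligands, receptors, inhibitors, transducers and targets ran from -0.16 to -0.12. Fzd1, a Wnt receptor, read 325 and 431 at 11.5 dpc, then 188 and 229 at 13.5, 175 and 182 at 14.5, and 168 and 163 at 16.5 dpc, a difference of -1.03 ± 0.13 (limma adjusted p = 9.29e-04). Sfrp2, a secreted Wnt inhibitor, read 161 and 190 at 11.5 dpc, then 89.0 and 147 at 13.5, 107 and 99 at 14.5, and 48.4 and 50 at 16.5 dpc, a difference of -1.07 ± 0.19. Without 11.5 dpc replicate 2 the difference was -0.83 for Fzd1 and -0.95 for Sfrp2, and neither was called; without 13.5 dpc replicate 1 the values were -0.99 and -0.95, again not called. Axin2, a target of the pathway named after its values were seen, differed by 0.53, from 114 and 131 to between 138 and 204.

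Genes of receptor tyrosine kinase pathways went both ways, though among the 10 receptors 2 fell and 0 rose. Of 23 tested members of the FGF, HGF and PDGF list, 3 fell and 1 rose, with a median of -0.07. Another 10 members on the array were not tested. Of the 23, 2 (Angpt1 and Fgfr1) passed the filter through the 11.5 dpc arrays only and fell. The 1 member that passed through the late arrays only, Spry4, rose. These calls are a description and no support. Angpt1, the angiopoietin ligand of the endothelial receptor Tie2, read 164 and 180 at 11.5 dpc, then 61.8 and 65.3 at 13.5, 63.7 and 66.9 at 14.5, and 47.5 and 29.1 at 16.5 dpc. The difference was -1.68 ± 0.20 (limma adjusted p = 6.69e-04). Fgfr1, an FGF receptor, read 88.2 and 98.4 against 30.5 to 67.4, a difference of -1.11, and Pdgfra, given above, was the remaining fall. Spry4, a feedback inhibitor of these receptors, rose from 63.6 and 48.4 to between 184 and 244, a difference of 1.93 ± 0.15 (limma adjusted p = 8.81e-05).

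Hedgehog, Notch and retinoic acid genes each gave 1 fall. In the Hedgehog list 1 of 13 tested members fell, with a median of -0.13: Gas1, a co-receptor for the ligands, read 241 and 288 at 11.5 dpc, then 79.6 and 122 at 13.5, 81.4 and 59.2 at 14.5, and 15.7 and 11.3, under the floor, at 16.5 dpc. Its difference was -2.25 ± 0.21 (limma adjusted p = 1.86e-04), and the mean over its probe sets gave -0.98, which was not called. Among 17 Notch genes, with a median of 0.06, the ligand gene Jag2 read 177 and 163 at 11.5 dpc and was at or under the floor on all 6 late arrays, where it was listed at -231 to -37.4, so on this probe set it was at least 6.84-fold lower. Another probe set of Jag2 had means under the floor in both groups, 18.3 at 11.5 dpc and 17.2 in late liver, and showed no difference. Notch4, a receptor of endothelium, rose from 86.0 and 59.7 to between 185 and 366, a difference of 1.70. Of 11 retinoic acid genes, with a median of -0.07, Rarb, a retinoic acid receptor, went from 124 and 139 to between 49.9 and 75.7, a difference of -1.11. Jag2 and Rarb passed the filter through the 11.5 dpc arrays only, so their falls are a description and no support.

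The insulin-like growth factor axis changed among its binding proteins. Of 15 tested members 2 rose and 1 fell, and the median was 0.19. Igfbp1, the binding protein secreted by hepatocytes, read 301 and 307 at 11.5 dpc, then 687 and 728 at 13.5, 674 and 759 at 14.5, and 949 and 979 at 16.5 dpc, a difference of 1.37 ± 0.07 (limma adjusted p = 1.84e-05). Igfbp7 went from 95.3 and 117 to between 189 and 267, a difference of 1.01 that lay at the threshold: it was 0.94 with each array centred on its median, 0.86 without 11.5 dpc replicate 1 and 0.95 without 14.5 dpc replicate 2, and was then not called. Igfbp5, a binding protein found in mesenchyme, went from 538 and 551 to between 139 and 368, a difference of -1.26, while another of its probe sets gave 0.25. Over the 7 signalling lists together, 13 of 156 tested genes fell and 4 rose, with a median of -0.16. Of these falls, Angpt1, Fgfr1, Smad7, Jag2 and Rarb passed the filter through the 11.5 dpc arrays only. Of the rises, Spry4 passed through the late arrays only. The calls of these genes are a description and no support. Of all genes tested, 1.53% fell and 5.95% rose. Pdgfra was counted here and among the stromal falls. Without 11.5 dpc replicate 2 the falls were 5, or 9 with the tested genes held fixed.

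**Figure D2:**
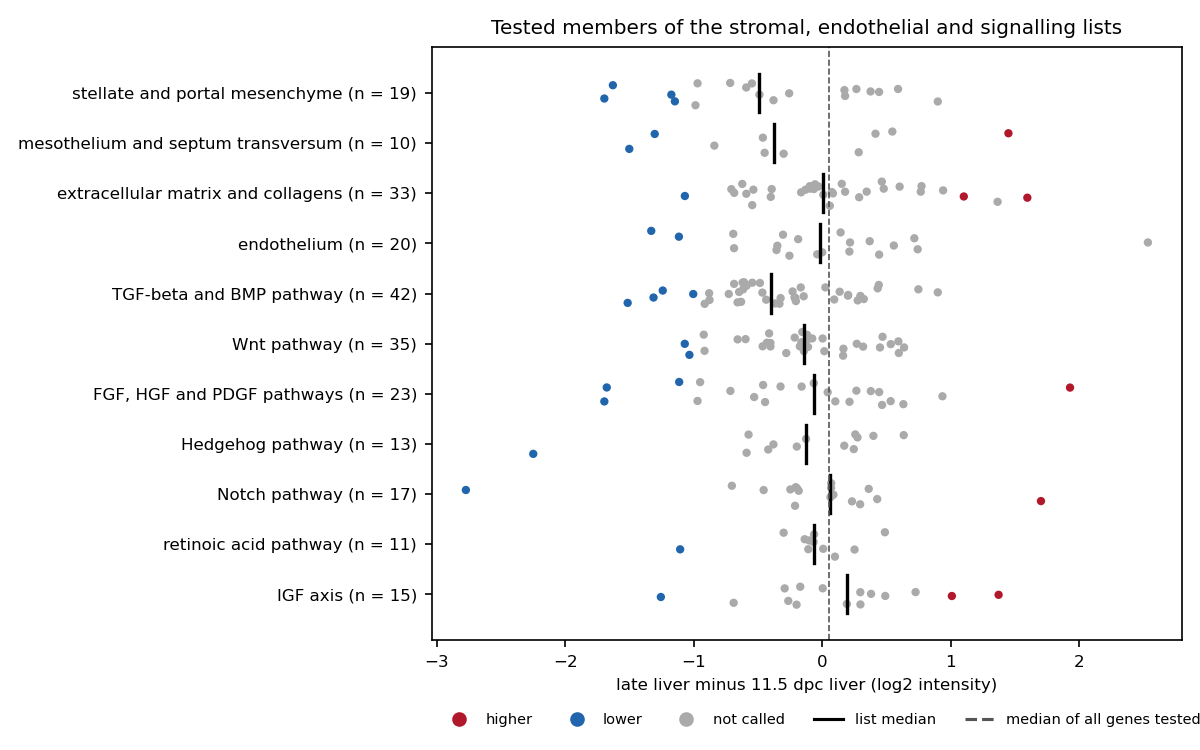
Difference between late and 11.5 dpc liver (log2 intensity, horizontal axis) for each tested gene of 11 stromal, endothelial and signalling lists, 1 point per gene; blue points fell, red points rose, grey points were not called, black bars are list medians and the dashed line is the median of all genes, 0.05. The bars for stellate and portal mesenchyme (-0.49), TGF-beta and BMP (-0.40) and mesothelium (-0.37) lie farthest to the left, and the bar for matrix genes lies at 0.01.

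Transcripts of red cells and hepatocytes rose in the same RNA. The median intensity of 21 definitive red cell genes was 764 and 488 on the 11.5 dpc arrays and 1756 to 2021 on the late arrays, and that of 25 plasma protein genes went from 794 and 780 to between 1845 and 2534. The median of the 19 stellate and portal mesenchyme genes went the other way, from 256 and 311 to 169 and 203 at 13.5, then 177 and 145 at 14.5, and 117 and 120 at 16.5 dpc. Matrix genes and endothelial genes had median differences of 0.01 and -0.02. The part of the red cell and hepatocyte rise in the falls of stromal and signalling genes was not tested.

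**Figure D3:**
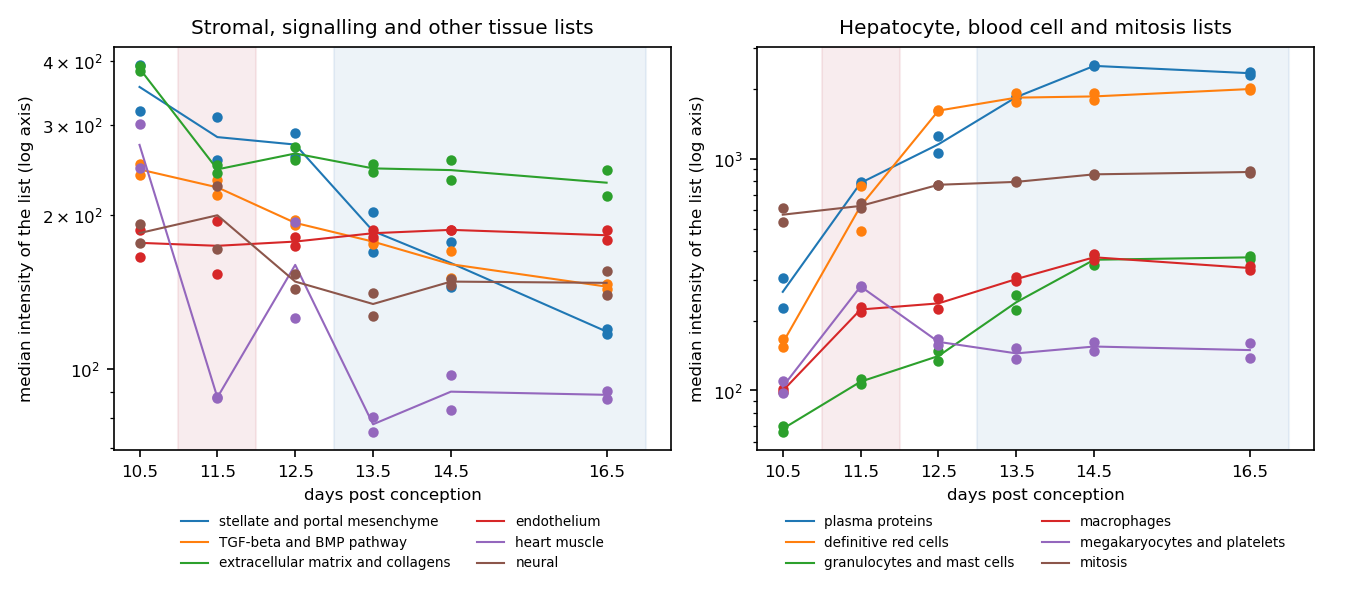
Median intensity (log axis) of 12 gene lists on each embryonic liver array against days post conception, with stromal, signalling and other tissue lists on the left and hepatocyte, blood cell and mitosis lists on the right; points are arrays, lines join stage means, and the shaded bands mark 11.5 dpc (red) and late liver (blue). The stellate list declines from 256 and 311 at 11.5 dpc to 117 and 120 at 16.5 dpc, the heart list is high at 10.5 and 12.5 dpc and low in both bands, and the red cell list climbs from 764 and 488 to 2021 and 1983.

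Most plasma protein genes rose. Of 25 tested members 17 rose and 0 fell, with a median of 1.40, against 5.95% of all genes called higher. Of the 25, 4 passed the filter through the late arrays only, and 3 of these 4 were among the rises. Ahsg, encoding fetuin-A, read 233 and 186 at 11.5 dpc, then 2046 and 1845 at 13.5, 3326 and 3366 at 14.5, and 3397 and 3352 at 16.5 dpc. The late arrays lay far above both early ones, with a difference of 3.75 ± 0.09 (limma adjusted p = 2.47e-06). Apoh, encoding a phospholipid-binding apolipoprotein, went from 233 and 161 to between 1567 and 2925, a difference of 3.59. Alb had the high values given above at both ages and differed by 0.48, which was not called.

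Metabolic enzyme genes rose too, with list medians that were larger at the later stages. Of 14 tested members of the liver enzyme list 9 rose and 0 fell. Another 7 members on the array were not tested, and 8 of the 14, of which 6 rose, passed the filter through the late arrays only and so had to differ, so that the share of rises is a description and no support. Over the 14 the list medians were 0.77 at 13.5 dpc, 1.82 at 14.5 dpc and 2.20 at 16.5 dpc, each against the same 2 arrays of 11.5 dpc. The corresponding medians of the plasma protein list were 1.28, 1.43 and 1.48. Cyp2d10 and Cyp2d26, cytochromes P450, were at or under the floor on both 11.5 dpc arrays and were at least 6.03-fold and 5.31-fold higher in late liver, at 106 to 182 and 61.9 to 240. Otc, an enzyme of the urea cycle, read 116 and 121 at 11.5 dpc and 376 to 556 later, a difference of 2.02. By contrast 0 of 14 tested hepatocyte transcription factors were called, with a median of 0.20: Cebpa, a factor for metabolic genes, read 209 and 214 against 313 to 383, a difference of 0.68 (limma adjusted p = 1.21e-03), and Hnf4a, named after its values were seen, differed by 0.40.

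The 8 largest rises included plasma protein and enzyme genes. Car3, Apoc4 and Gsta3 passed the filter through the late arrays only, so their rises are a description and no support. Car3, a carbonic anhydrase, read 32.3 and 42.5 at 11.5 dpc, then 553 and 774 at 13.5, 1042 and 1081 at 14.5, and 1072 and 930 at 16.5 dpc, a difference of 4.58 ± 0.16 (limma adjusted p = 5.23e-06). Tmcc2, encoding a transmembrane coiled-coil protein, went from 260 and 181 to between 3320 and 3887, a difference of 4.05. Tent5c, encoding a poly(A) polymerase, differed by 4.04, and Slc2a9, a urate transporter, by 3.93. Pzp, a broad protease inhibitor of plasma, differed by 3.93, from 84.0 and 50.4 to between 578 and 1333. Apoc4, an apolipoprotein, and Gsta3, a glutathione transferase, were at the floor on both 11.5 dpc arrays and were at least 15.3-fold and 14.4-fold higher, while Ahsg, given above, was the remaining gene.

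Most definitive red cell genes rose. All 21 tested members read higher on each late array than on both 11.5 dpc arrays, against 24.6% of all genes, and 16 of the 21 were called, with a median of 1.41. Alas2, the first enzyme of heme synthesis in erythroid cells, read 764 and 396 at 11.5 dpc, then 4220 and 4208 at 13.5, 4486 and 4049 at 14.5, and 4560 and 4745 at 16.5 dpc, a difference of 2.99 ± 0.21 (limma adjusted p = 5.10e-05). Trim10, a tripartite motif gene of erythroid cells, read 496 and 302 against 2101 to 2338, a difference of 2.53. On both probe sets 11.5 dpc replicate 1 was above replicate 2, as were the list medians given above, 764 and 488.

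Promoters of genes that rose were read for short motifs, and the 3 below are shown because they belong to strongly rising genes described here, the red cell genes Alas2 and Trim10 among them, and each holds a GATA motif, the binding sequence of the erythroid factor GATA1. The sequences are the 250 bases before the gene start from RefSeq (GRCm38.p6), 5′ to 3′ on the gene's strand, and the capitals mark TTATCT, the reverse complement of AGATAA. Tmcc2 lies on the minus strand at chr1:132367949-132368198, Trim10 on the plus strand at chr17:36869324-36869573, and Alas2 on the plus strand at chrX:150547167-150547416. The motif starts at -33, -163 and -86 from the gene start, respectively.
Tmcc2: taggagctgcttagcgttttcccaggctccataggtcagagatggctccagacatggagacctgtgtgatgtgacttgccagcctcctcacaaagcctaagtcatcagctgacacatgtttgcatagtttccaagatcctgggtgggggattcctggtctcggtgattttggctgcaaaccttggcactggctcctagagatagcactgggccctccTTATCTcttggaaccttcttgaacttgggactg
Trim10: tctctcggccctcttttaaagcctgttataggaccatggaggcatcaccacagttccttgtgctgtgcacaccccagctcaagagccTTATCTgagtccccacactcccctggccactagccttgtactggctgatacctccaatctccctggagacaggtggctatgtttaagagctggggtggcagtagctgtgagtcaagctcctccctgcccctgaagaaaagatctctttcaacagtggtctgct
Alas2: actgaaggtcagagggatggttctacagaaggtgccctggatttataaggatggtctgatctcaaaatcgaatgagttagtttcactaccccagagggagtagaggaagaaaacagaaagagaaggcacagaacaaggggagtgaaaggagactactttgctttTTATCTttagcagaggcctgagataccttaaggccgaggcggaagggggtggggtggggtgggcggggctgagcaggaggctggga

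AGATAA, searched on both strands, was present in 87 of 772 promoters of genes that rose (11.3%), in 15 of 204 promoters of genes that fell (7.35%) and in 6.52% of the 13049 promoters of tested genes. The motif was 1 of 11 searched. The TATA motif TATAAA was present in 10.4%, 6.86% and 7.55% of the same 3 groups, the TEAD motif GGAATG in 13.5%, 13.2% and 11%, and the E-box CAGCTG in 10.2%, 9.80% and 12%. The motifs of hepatocyte factors were rare: HNF4 (CAAAGTCCA) was present in 8 promoters of genes that rose (1.04%), in 0 of those that fell and in 0.398% of all, and the HNF1 motif in 4 (0.518%), in 0 and in 0.0843%. The FOXA motif TGTTTAC gave 3.37%, 1.96% and 2.50%, the KLF motif CCACACCC 3.89%, 3.92% and 3.39%, the CCAAT motif (CCAAT) 35.4%, 31.9% and 34.7%, and the C/EBP motif TTGCGCAA 0%, 0.49% and 0.199%. The CArG motif was in 2 of all promoters and in 0 of the called genes' promoters. These shares describe the letters in the window and not binding.

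Embryonic globin genes fell. Of 3 tested globins of primitive red cells, the first circulating red cells of yolk sac origin, 2 fell. Hba-x, the embryonic alpha-like zeta chain, read 6797 and 6577 at 11.5 dpc, then 2468 and 2290 at 13.5, 1510 and 1430 at 14.5, and 1653 and 1566 at 16.5 dpc, a difference of -1.91 ± 0.06 (limma adjusted p = 3.41e-06). Hbb-bh1, an embryonic beta-like chain, read 3898 and 3946 against 541 to 821, a difference of -2.65. Globin probe sets can share sequence between paralogs, and Hbb-y, the third, differed by -0.36 and was not called.

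Granulocyte genes rose. Of 14 tested granulocyte and mast cell genes 8 rose and 0 fell, with a median of 1.47, against 5.95% of all genes called higher. Another 4 members on the array were not tested. Of the 14, 2 passed the filter through the late arrays only, and both rose. Camp, encoding the antimicrobial peptide cathelicidin, read 54.0 and 30.0 at 11.5 dpc, then 204 and 211 at 13.5, 277 and 338 at 14.5, and 378 and 380 at 16.5 dpc, a difference of 2.84. S100a8, a calcium-binding protein of neutrophils, went from 395 and 280 to between 1134 and 1945, a difference of 2.12. Of 21 macrophage genes 3 rose and 0 fell, with a median of 0.57: Cd5l, a secreted protein of Kupffer cells, went from 139 and 70.8 to between 622 and 1146, a difference of 3.16. The scavenger receptor gene Marco differed by 2.66 and the lysozyme gene Lyz1 by 1.06. Marco passed the filter through the late arrays only, so its rise is a description and no support.

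Some platelet genes fell. Of 14 tested megakaryocyte and platelet genes 3 fell and 0 rose, with a median of -0.52, and for 10 of the 14 all late arrays lay below both early ones, against 19.1% of all genes tested. Gp1bb, a subunit of the receptor for von Willebrand factor, read 333 and 377 against 124 to 164.6, a difference of -1.30 whose mean over probe sets was -0.50 and not called. Itgb3, the integrin beta 3 chain, differed by -1.28, and Plek, encoding the platelet kinase substrate pleckstrin, by -1.25, from 790 and 884 to between 320 and 377. Pf4, encoding platelet factor 4 and named after its values were seen, read 4047 and 4471 at 11.5 dpc and 1975 to 2366 later; its difference rounded to -1.0 and fell just short of the threshold. Among 12 stem and progenitor genes Tal1 rose by 1.21 and Meis1 had a difference of -1.59 (-0.63 and not called as the mean over its probe sets). In the B lymphoid list 0 of 6 tested genes were called, and Blnk, an adaptor of B cell receptor signalling, differed by 0.72.

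A few mitosis genes rose. Of 25 mitosis genes 3 rose and 0 fell, with a median of 0.37, and of 25 DNA replication genes 0 were called, with a median of 0.31, against 5.95% of all genes called higher. All late arrays lay above both early ones for 18 of the 25 mitosis genes and 16 of the 25 replication genes, against 24.6% of all genes. Mki67, the proliferation marker, read 1383 and 1083 at 11.5 dpc and 3348 to 3947 later, a difference of 1.57 ± 0.09 (limma adjusted p = 2.47e-05). Cenpf and Nusap1, proteins of the kinetochore and spindle, differed by 1.11 and 1.09. The mean over their probe sets gave 0.64 and 0.85, and neither was then called. Pcna, the replication clamp, read 4386 and 4422 against 5611 to 6074, a difference of 0.39 that was not called.

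**Figure D4:**
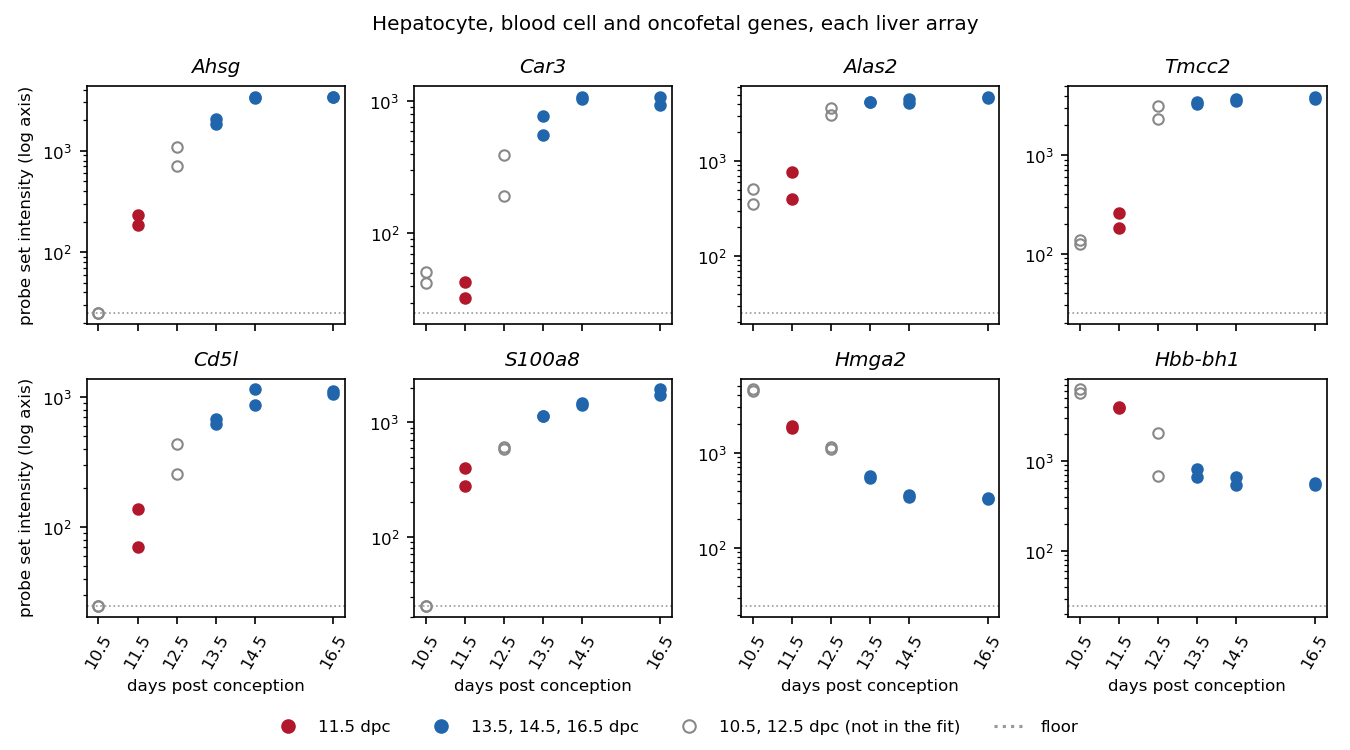
Probe set intensity (log axis) against days post conception for 8 hepatocyte, blood cell and oncofetal genes, 1 point per liver array, with colours and floor (24.8, dotted line) as defined in the legend. The late arrays (blue) lie above both 11.5 dpc arrays (red) for the first 6 genes and below them for Hmga2 and Hbb-bh1; Ahsg goes from 233 and 186 at 11.5 dpc to 3397 and 3352 at 16.5 dpc.

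Among oncofetal genes 1 of 10 fell. Hmga2, a chromatin protein of early embryonic cells, read 1808 and 1909 at 11.5 dpc, then 547 and 570 at 13.5, 360 and 343 at 14.5, and 336 and 329 at 16.5 dpc, a difference of -2.21 ± 0.07 (limma adjusted p = 3.41e-06). It stayed called under each of the alternatives run. Afp differed by 0.11, Dlk1 by 0.09 and Igf2bp1 by -0.74. In the bile duct list 1 of 5 tested genes fell: Sox4, an SRY-box factor, went from 627 and 1002 to between 236 and 416, a difference of -1.38, which was -0.82 and not called as the mean over its probe sets.

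The 8 largest falls included several genes that reached the floor. Isl1, Nr2f1, Dppa4, Lgi1, Serpinb6e and Plcg1 passed the filter through the 11.5 dpc arrays only, so their falls are a description and no support. Asb4, a SOCS box gene, read 447 and 579 at 11.5 dpc, then 102 and 110 at 13.5, 53.9 and 51.5 at 14.5, and 61.2 and 62.0 at 16.5 dpc, a difference of -2.86 ± 0.13 (limma adjusted p = 9.46e-06). Isl1, a LIM homeodomain factor, read 155 and 240 against -12.2 to 38.6, a difference of -2.82 with 4 of the 6 late arrays at the floor. Nr2f1, an orphan nuclear receptor, and Dppa4, a gene of pluripotent cells, were at the floor on all late arrays and were at least 6.99-fold and 8.02-fold lower. Lgi1, a secreted protein known from neurons, differed by -2.90 and Serpinb6e, a protease inhibitor, by -2.89. For each of these also 4 of the 6 late arrays were at the floor, so the size of the 3 differences and their rank depend on where the floor was set. Rsph3a and Plcg1 had the largest fitted falls, -3.32 and -3.07, with limits: Rsph3a read 267 on 16.5 dpc replicate 2 and was at the floor on the other 5 late arrays, so that without either 11.5 dpc array its difference (-3.37 and -3.26) was not called, and another probe set of Plcg1 gave 1.56.

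Beyond the lists, the 195 falls held growth factor, DNA methylation and transcription factor genes, chosen for mention after their values were seen. Mdk, encoding the growth factor midkine, read 1666 and 2148 at 11.5 dpc, then 609 and 579 at 13.5, 404 and 354 at 14.5, and 218 and 200 at 16.5 dpc, a difference of -2.39. Its relative Ptn, pleiotrophin, differed by -1.6, from 559 and 784 to between 159 and 413. The de novo DNA methyltransferase genes Dnmt3a and Dnmt3b differed by -1.29 and -1.11, from 357 and 449 to between 146 and 207 and from 255 and 338 to between 113 and 167. Mycn, a MYC family factor, differed by -1.38 and Meis2, a homeobox factor, by -1.48.

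Adhesion and guidance genes, chosen in the same way, were also among the falls. Cdh11, a cadherin of mesenchyme, read 342 and 393 against 63.9 to 221, a difference of -1.65. Nrp1, a receptor for semaphorins and VEGF, went from 453 and 621 to between 179 and 260, a difference of -1.37, and Efnb2, an ephrin ligand of arteries, from 129 and 178 to between 39.7 and 69.9, a difference of -1.42. Ackr3, a scavenging chemokine receptor, went from 218 and 246 to between 37.1 and 78.8, a difference of -2.20. Fscn1, an actin-bundling protein, differed by -2.17, and Pkm, the pyruvate kinase of growing tissues, by -1.37, from 1785 and 1869 to between 565 and 894.

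Heart muscle genes had differences centred near 0, and 4 skeletal muscle genes rose. Of 8 tested heart muscle genes 1 fell and 1 rose, with a median of -0.10: Myl7, an atrial myosin chain, went from 102 and 97.8 to between 36.4 and 54.6, while Myl4, another atrial chain, went from 83.4 and 47.4 to between 101 and 181, a rise not called without 11.5 dpc replicate 2. Myl7 passed the filter through the 11.5 dpc arrays only, so its fall is a description and no support. Of 8 skeletal muscle genes 4 rose and 0 fell, with a median of 1.03. Another 7 members on the array were not tested, and 5 of the 8, of which 3 rose, passed the filter through the late arrays only. Actc1, with the values given above, had a difference of 2.76, and Mylpf differed by 2.58 and Myl1 by 2.10. Tnnc2, a troponin, was at the floor on both 11.5 dpc arrays and at least 2.74-fold higher. The source of these transcripts was not tested.

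Other lists outside the liver gave isolated calls. In the neural list 2 of 10 fell, with a median of -0.05: Isl1, given above, and Nnat, a proteolipid, from 557 and 676 to between 115 and 273. Of these, Isl1 passed the filter through the 11.5 dpc arrays only. In the gut, stomach and pancreas list 2 of 11 fell, with a median of 0.25: Gcg, encoding proglucagon, differed by -1.56, and Barx1, a homeobox factor of stomach mesenchyme, by -1.40, from 196 and 240 to between 55.4 and 120. Of 11 Hox genes Hoxc9 and Hoxb2 fell, by 1.74 and 1.20 on the log2 scale, with a list median of 0.04; Hoxc9 was not called without 11.5 dpc replicate 1 (-1.47), nor Hoxb2 without replicate 2 (-0.92). Both Hox falls passed the filter through the 11.5 dpc arrays only, and another 13 Hox genes on the array were not tested. Of 8 cartilage and bone genes Sox6 and Ibsp rose, by 1.38 and 1.21. Of 5 lung, kidney and gonad genes 0 were called, with Foxf1, a mesenchymal forkhead factor, at -0.56. Among 11 immediate stress genes Dusp1 and Ier3 rose by 1.74 and 1.49, and Jun, which differed by -1.13, was not called without 11.5 dpc replicate 2. Ibsp and Ier3 passed the filter through the late arrays only, so their rises are a description and no support.

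More genes passed the test at each later stage. Each stage was set against the same 2 arrays of 11.5 dpc, so the 3 counts share that error. At 13.5 dpc 619 genes rose (4.84%) and 126 fell (0.986%), at 14.5 dpc 830 rose (6.49%) and 220 fell (1.72%), and at 16.5 dpc 907 rose (7.10%) and 298 fell (2.33%). Over the 760 genes that rose in late liver, the median differences at the 3 stages were 1.34, 1.59 and 1.58. Over the 195 that fell they were -1.06, -1.37 and -1.58. On the 12.5 dpc arrays, which the fit did not use, 608 of the 760 rising genes (80.0%) and 85 of the 195 falling genes (43.6%) lay nearer to the late mean than to that of 11.5 dpc, against 6718 of the 11828 genes that were not called (56.8%). The heart transcripts on the 12.5 dpc arrays stand beside this, and their part was not tested.

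Within late liver, few differences could be told from replicate spread. From 13.5 to 16.5 dpc there were 11 rises (0.0861%) and 10 falls (0.0782%), and the 21 calls became 0 when any 1 of the 4 arrays of 13.5 and 14.5 dpc was left out, and also with the replicate number as a block. Fbp1, an enzyme of gluconeogenesis, read 66.0 and 106 at 13.5, then 184 and 227 at 14.5, and 314 and 300 at 16.5 dpc, a difference of 1.88 between the end stages. Upb1, an enzyme of pyrimidine breakdown, was under the floor on both 13.5 dpc arrays and was at least 3.50-fold higher at 16.5 dpc, and Sult1a1, a sulfotransferase, differed by 1.74. On the falling side Fstl1, a follistatin-like secreted protein, read 687 and 773 at 11.5 dpc, then 790 and 657 at 13.5, 604 and 596 at 14.5, and 238 and 228 at 16.5 dpc, a difference of -1.63 between 13.5 and 16.5 dpc (limma adjusted p = 0.016). Gas1, under the floor on both 16.5 dpc arrays, was at least 3.97-fold lower than at 13.5 dpc, and Actg2, a smooth muscle actin, differed by -1.86 over the same interval.

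Adult liver was set beside late liver for the called genes. Over the 760 genes that rose, the adult arrays lay a median of 1.26 below the late arrays on the log2 scale, with 416 genes lower by at least 1 and 174 higher by at least 1. For the 195 genes that fell, the adult arrays lay a median of 0.63 below late liver, with 73 lower and 34 higher by at least 1. Over the 11828 genes that were not called the median was -0.28, with 2819 lower and 747 higher by at least 1. These are differences of means with no test. Adult livers came from females of 10 weeks and are labelled as normal baseline liver, although the treatment text of those samples speaks of partial hepatectomy, and the sexes of the embryos are not given in the labels.

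The rest of the embryo gave values for the same genes outside the liver. The rest of the embryo was measured by 1 array at 11.5 dpc and 1 at 14.5 dpc, so its differences have no replicate check, and those arrays carry values in another form, with exact zeros and none below 0. Of 10946 genes compared, 9.49% were higher and 1.92% lower by at least 1 log2 at 14.5 dpc. Among 531 genes that rose in liver 157 were also higher there (29.6%), and among 174 that fell in liver 18 were also lower (10.3%) and 5 higher (2.87%). Hmga2 differed by -2.34 in the rest of the embryo, Dnmt3a by -2.34, Hbb-bh1 by -7.29 and Mycn by -1.26. Pdgfra differed by -0.21 there, Rgs5 by 2.39 and Nrp1 by 1.27, so these 3 were not lower there by 1 log2.

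**Figure D5:**
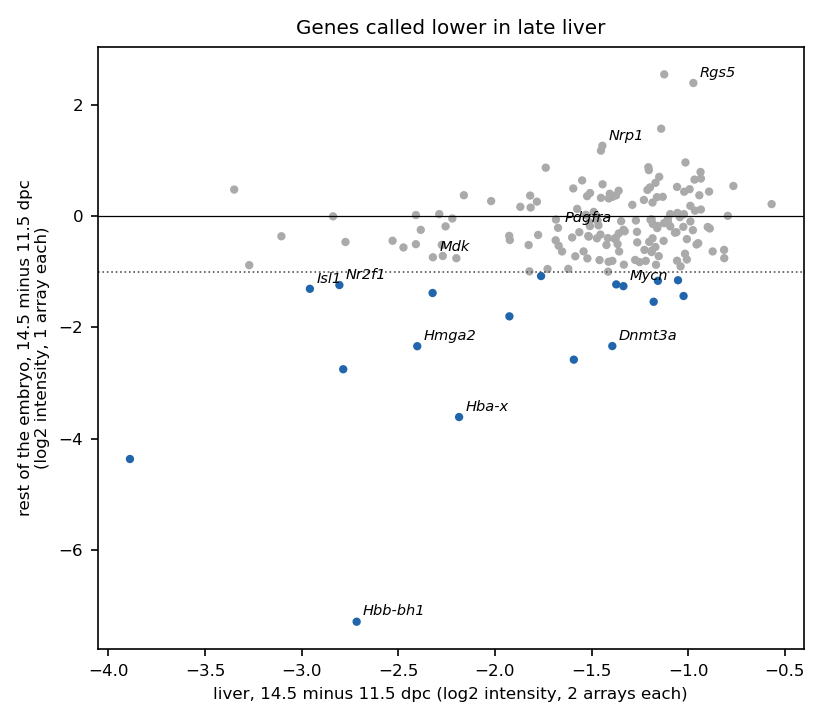
Difference between 14.5 and 11.5 dpc in liver (horizontal axis, log2 intensity, 2 arrays per stage) and in the rest of the embryo (vertical axis, log2 intensity, 1 array per stage) for 174 genes that fell in late liver, 1 point per gene; blue points are lower by at least 1 log2 (dotted line) in the rest of the embryo. There are 18 blue points, among them Hmga2 and Hbb-bh1, and Rgs5 lies at 2.39 on the vertical axis.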

How the data were processed

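Each sample was total RNA from a pool of embryonic livers, hybridised as biotinylated cRNA to an Affymetrix mouse 430 2.0 array, per the labels' protocols. The authors deposited 1 intensity per probe set and array, on a linear scale with some values below 0; the summary method and the scaling of arrays are not given in the sources used here, so all differences assume the deposited scaling. Groups came from the source names, because the age label of later liver samples repeats 10.5 dpc and the titles of rest-of-embryo samples name liver.

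Of 45101 probe sets, 34945 have 1 gene symbol in GEO's platform annotation, 932 several and 9160 none. A gene was its 1-symbol probe set with the highest mean log2 over all 18 arrays. limma 3.58.1 in R 4.3.3 fitted a mean per stage (4 residual degrees of freedom, intensity trend), two-sided. Precision is limited by 2 arrays per stage; array medians differed by at most 0.158 log2. The fit was tested on simulated data. Gene lists were described by counts and medians, with no set test. Genes were named by rule: the 8 largest called, non-overlapping rises and falls, up to 4 called members in each direction of stromal, endothelial and signalling lists and up to 2 of other lists (further called members where 5 or fewer moved that way), or, in a list without calls, the member of smallest adjusted p, and 3 in each direction for 16.5 against 13.5 dpc. The arrays compared, lists and rule were chosen with earlier results of these data known.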

Additional observations from a re-analysis of the deposited data

Results flagged for a closer look

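In 8 of 88 named genes tested for it, 1 of the 6 late arrays stood apart by Dixon's criterion, taken on log2 values after the floor. Chance meets the criterion in about 1 of 20 groups of like values. Here the 6 arrays came from 3 stages and some values were set to the floor, so that rate is only a rough guide. Where the other values were at the floor, a small distance was enough. The high values were 267 for Rsph3a and 58.6 for Hoxc9, both on 16.5 dpc replicate 2, 38.6 for Isl1 on 13.5 dpc replicate 2, 28.1 for Plcg1 on 13.5 dpc replicate 1, and 28.5 for Serpinb6e and 267 for Igfbp7 on 14.5 dpc replicate 2. The low values were 30.1 for Bnc1 on 14.5 dpc replicate 2 and 799 for Col18a1 on 13.5 dpc replicate 2. By array, 14.5 dpc replicate 2 had 3 of these values, 13.5 dpc replicate 2 and 16.5 dpc replicate 2 had 2 each, and 13.5 dpc replicate 1 had 1. For Isl1, Plcg1, Serpinb6e, Rsph3a and Hoxc9 the other late values lay near or under the floor of 24.8.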

How the results depend on the processing

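With 2 arrays per stage, small differences could not be told from replicate spread, and values near the floor carry no order. The counts reported were 760 rises, 195 falls, 7 stromal falls, 13 signalling falls and 21 calls between 16.5 and 13.5 dpc. Under log2 of intensity plus 50 they were 504, 89, 2, 6 and 12. Of the counts against 11.5 dpc, 13.5 dpc alone gave 126 falls and 7 signalling falls, and 16.5 dpc alone gave 298, 12 and 20 for falls, stromal falls and signalling falls. Between 16.5 and 13.5 dpc, 5 genes were called with no filter and 13 with the probe set highest over the 8 arrays. Leaving out 1 array gave 743 to 847 rises, 92 to 211 falls, 3 to 8 stromal falls, 5 to 14 signalling falls and 0 to 9 calls between 16.5 and 13.5 dpc. With the same genes tested each time, alternatives added after seeing the data, the ranges were 753 to 846, 149 to 260, 5 to 8, 9 to 18 and 0 to 11 (10 without 11.5 dpc replicate 2). Of the 195 falls, 67 were not tested without 11.5 dpc replicate 2 and 68 without replicate 1, since the filter asks for 2 arrays. The other counts stayed within 1.5 times of those reported.

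Higher minus lower calls in the mesothelium list turned from -1 to 1 with the floor at the 40th percentile, with log2 of intensity plus 50, and without either 11.5 dpc array; the matrix list turned to -1 at 13.5 dpc alone and the IGF list to -1 at 16.5 dpc alone. With the probe set highest over the 8 arrays, Igfbp5 gave 0.25, Plcg1 1.56 and Timp3 0.11, and at 16.5 dpc alone Actg2 gave -0.051. The cause was not tested. The correlation of same-numbered deviations between stages ran from -0.171 to 0.27, the latter between 11.5 and 13.5 dpc. Whether replicate numbers paired arrays across stages was not settled by these values. With the replicate block 761 genes rose, 195 fell and 0 were called between 16.5 and 13.5 dpc.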
